A study of Mus musculus with 12 samples.

Results

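The comparison described here asked in which genes the move from asynchronous growth to mitosis changed ribosome footprints differently in cells with the S38A form of RPL12 than in cells with the wild-type (WT) form. It is a difference of differences, the S38A change (mitotic minus asynchronous) minus the WT change, and it uses 8 of the 12 libraries of the study, 2 in each of 4 groups. The 4 S38D libraries are outside the comparison and are given beside it. All 22520 gene IDs of the count tables were considered, 11680 had a read in some library, and 6692 passed the filter on low counts and were tested.

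All groups share 1 murine B cell lymphoma line, labelled 19PP and grown as its reporter-negative subline 19DN. The line goes back to a Rag2-/-γC-/- mouse that received bone marrow of the genotype Cγ1-Cre; Myc/P110*flSTOP, so every group carries these tumour-driving alleles and the cells are not normal B cells. The genotypes are RPL12 WT, RPL12 S38A and RPL12 S38D. In the 3 groups labelled as mitotic, cells were held for 8 hr in nocodazole at 100 ng/mL, washed and given fresh medium for 10 min, and all lysates were made with cycloheximide at 100 µg/ml. State and drug treatment therefore cannot be told apart. The treatment protocol in the labels is the same text for asynchronous samples, which are identified by their titles and their cell cycle label. Whether replicates are separate cultures is not stated in the labels, so the p-values reflect how far the 2 libraries of a group differ, a spread that may be technical. How many clones stand for a genotype is not given either, so a genotype difference below is one between cells carrying that label.

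Ribosome profiling sequences the short pieces of mRNA that a translating ribosome shields from nuclease, so that the number of reads on a coding sequence follows both how much of the mRNA there is and how densely it is translated. RPL12, or uL11, sits at the foot of the stalk of the large subunit, the protrusion through which elongation and release factors are recruited and their GTP hydrolysis stimulated. Serine 38 is a phosphorylation site of this protein, alanine at that position cannot accept a phosphate, and aspartate is used to imitate one. During mitosis cells lower their overall protein synthesis and shift which mRNAs are translated. Footprints were not divided by mRNA amounts, since matching RNA-seq was not analysed here, and a change below can lie in either. These are also bulk libraries, in which a smaller share of cells with a given mRNA and less of it per cell cannot be told apart.

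Coding reads numbered 258354 to 440741 in the 8 libraries, and 9362 to 9751 gene IDs had at least 1 read. Chi-square tests between the replicates of a group gave 1.17 to 1.69 per degree of freedom over the 4 groups, more than the value of 1 that sampling alone gives. The share of uniquely aligned reads outside counted features was 19.2 to 22.97% in WT asynchronous, 29.0 to 34.6% in WT mitotic, 22.2 to 25.8% in S38A asynchronous and 25.6 to 27.5% in S38A mitotic libraries, so the states stood apart in WT and overlapped in S38A. Alignments to more than 1 place averaged 67.3%, 73.0%, 62.5% and 68.1% in the same order. The part of these library differences in the results below was not tested. The gene IDs come without names in the files, and the reference table held none of them, so genes are given by ID, the label of a B cell line could not be set against its marker genes, and the level of RPL12 was not located.

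The mitotic change differed between S38A and WT cells in 30 of 6692 genes, 0.448% of those tested (edgeR quasi-likelihood test, Benjamini-Hochberg adjusted p under 0.05). In 20 of them, 0.299% of the genes tested, the S38A change lay below the WT change, and in 10, 0.149%, it lay above. The 20 genes had more footprints in mitotic than in asynchronous WT cells and, with 1 exception, fewer in mitotic than in asynchronous S38A cells. The 10 genes had fewer footprints in mitotic WT cells, and 7 of the 10 had more in mitotic S38A cells. The difference reached 7.56-fold among the 20 and 4.01-fold among the 10. Both of these genes had few reads, 4 to 27 and 9 to 51 in a library, and log2 standard errors of 0.63 and 0.40. The median log2 difference over all genes tested was 0.0029, its median size was 0.34, and the median standard error was 0.45. An unadjusted p under 0.05 was found for 613 genes, 9.16%.

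**Figure D1:**
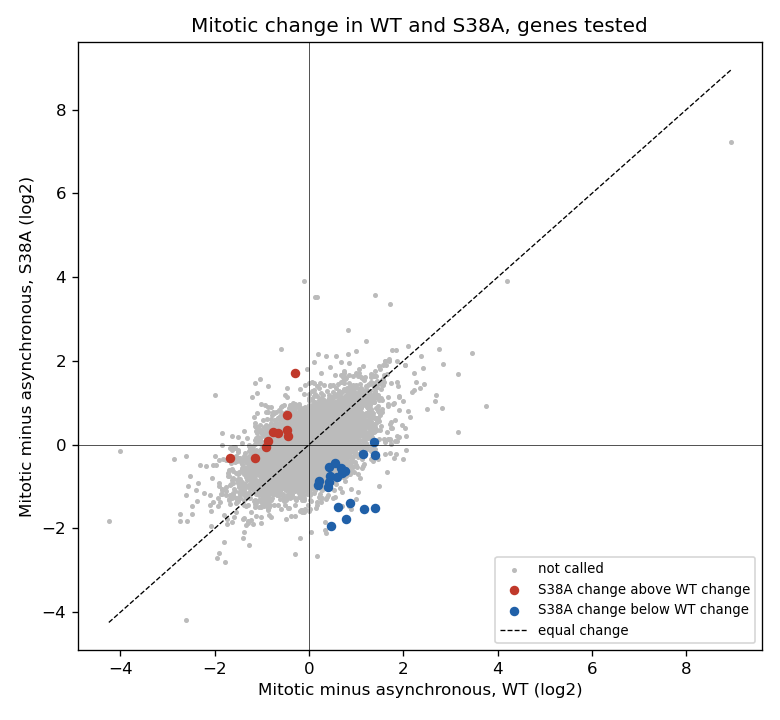
Log2 change of footprints from asynchronous to mitotic cells in WT (horizontal axis) and S38A (vertical axis), 1 point per gene tested (6692), with the line of equal change dashed. The 20 genes whose S38A change was called below the WT change (blue) lie at WT changes above 0, and the 10 called above it (red) lie at WT changes below 0.

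The count of 10 depended on single libraries and on settings, while the count of 20 moved less in proportion, though settings moved it too. The higher genes numbered 20 without WT asynchronous replicate 1, 5 without WT mitotic replicate 1, 5 without S38A mitotic replicate 1 and 6 without S38A mitotic replicate 2. Scaling libraries by their totals alone gave 16 higher and 20 lower genes in place of 10 and 20. DESeq2 gave 15 and 16, among the 811 genes to which it gave an adjusted p. A fit of the 8 libraries alone gave 16 higher and 28 lower genes, and a fit without the filter on low counts gave 16 and 25. The lower genes numbered between 14 and 22 when 1 of the 8 libraries was left out.

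ENSMUSG00000031004.8 had the smallest p of all genes tested and was among the 20 lower genes. Its footprints, as CPM (counts scaled to a common library total, explained with the processing) for the first and second replicate, were 328 and 428 in WT asynchronous cells, 577 and 591 in WT mitotic cells, 3373 and 2184 in S38A asynchronous cells, and 978 and 1001 in S38A mitotic cells. The S38A asynchronous libraries stand far above the other 6, and within each genotype the 2 states do not overlap. From asynchronous to mitotic cells the level rose by 0.62 ± 0.17 (log2, SE) in WT (adjusted p = 0.00668) and changed by -1.49 ± 0.14 in S38A (adjusted p = 6.62e-13, edgeR for both). The difference of the changes was -2.11 ± 0.22, or 4.32-fold (adjusted p = 2.34e-10, edgeR). Taken library against library, the WT change ran from 0.43 to 0.84 and the S38A change from -1.78 to -1.12. The excess over WT shrank from 2.87 in asynchronous to 0.76 in mitotic S38A cells without closing, and both differences passed the test (adjusted p = 8.30e-24 and 0.000165, edgeR). The S38A asynchronous replicates differed from each other more than those of any other group for this gene, with a mean of 2778 ± 841 CPM (SD, n = 2).

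ENSMUSG00000031604.10 showed another form of the same direction, in which the genotypes differed after the mitotic change and not detectably before it. WT asynchronous libraries had 891 and 909 CPM, WT mitotic libraries 1419 and 1490, S38A asynchronous libraries 764 and 886, and S38A mitotic libraries 581 and 450. WT mitotic libraries are the highest and S38A mitotic libraries the lowest, with asynchronous libraries of both genotypes between them. The WT change was 0.69 ± 0.14 and the S38A change -0.67 ± 0.14 (log2, SE), both past the threshold (adjusted p = 9.48e-05 and 0.000336, edgeR). Their difference was -1.36 ± 0.20, or 2.57-fold (adjusted p = 4.81e-06, edgeR). S38A minus WT was -0.13 ± 0.14 in asynchronous cells (adjusted p = 0.665) and -1.49 ± 0.14 in mitotic cells (adjusted p = 3.80e-13, edgeR for both).

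Among the 10 genes of the other direction, ENSMUSG00000026234.12 had the smallest p. Its footprints were 844 and 1088 CPM in WT asynchronous, 543 and 604 in WT mitotic, 1748 and 1970 in S38A asynchronous, and 2307 and 2302 in S38A mitotic libraries. All 4 S38A libraries lie above all 4 WT libraries, and the gap between genotypes is wider in mitosis. The WT change was -0.75 ± 0.14 (log2, SE; adjusted p = 5.43e-05, edgeR), while the S38A change of 0.31 ± 0.12 did not pass the threshold (adjusted p = 0.0699, edgeR). The difference of the changes was 1.06 ± 0.19, or 2.09-fold (adjusted p = 0.000408, edgeR). S38A minus WT was 0.94 ± 0.13 in asynchronous and 2.00 ± 0.14 in mitotic cells, the latter having the smallest p of all genes in that comparison (adjusted p = 2.33e-07 and 3.91e-19, edgeR).

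ENSMUSG00000005413.8, the second gene of that direction, changed in opposite directions in the 2 genotypes. WT asynchronous libraries had 614 and 610 CPM, WT mitotic libraries 446 and 446, S38A asynchronous libraries 396 and 369, and S38A mitotic libraries 623 and 628. The mitotic level of S38A cells is close to the asynchronous level of WT cells, and the other 4 libraries are lower. The WT change was -0.46 ± 0.15 (adjusted p = 0.0284) and the S38A change 0.71 ± 0.15 (adjusted p = 0.000353), which differ by 1.16 ± 0.22, or 2.24-fold (adjusted p = 0.000743, edgeR for all 3). S38A minus WT was -0.67 ± 0.16 in asynchronous growth and 0.49 ± 0.15 in mitosis, a reversal of which genotype was higher (adjusted p = 0.00182 and 0.0189, edgeR).

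**Figure D2:**
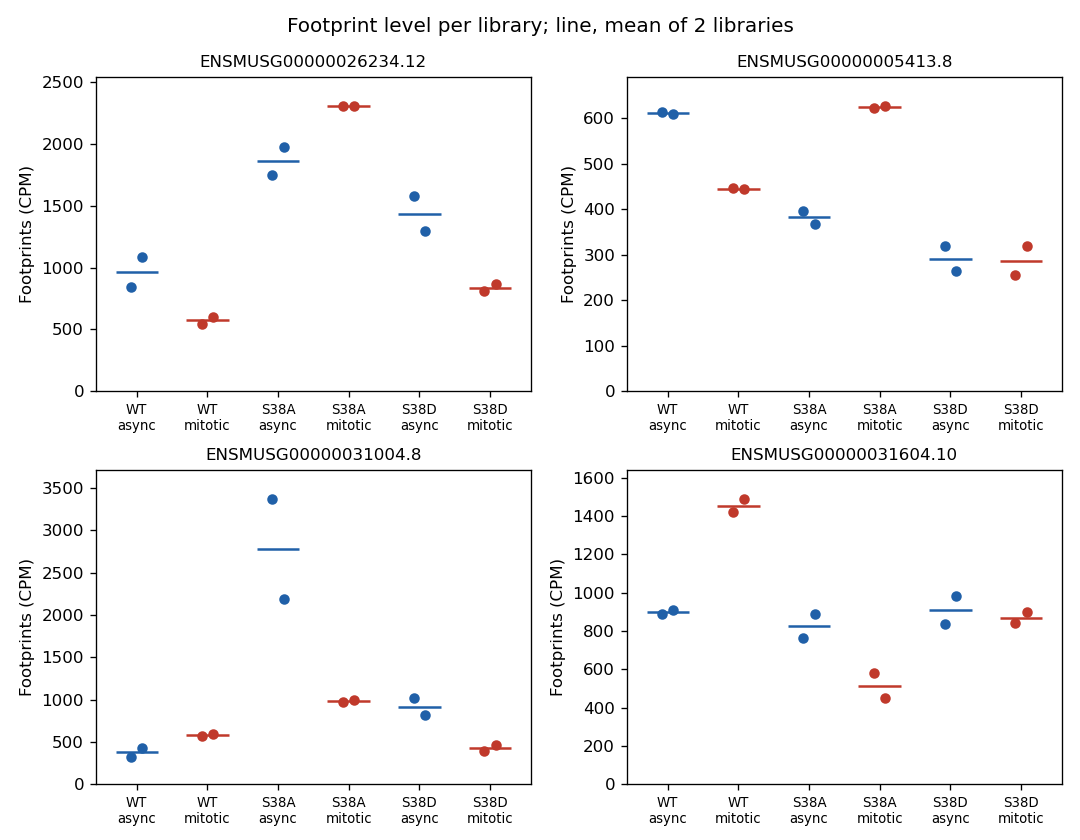
Footprint level (CPM, linear axes from 0) of the 4 genes in each of the 12 libraries by group, asynchronous in blue and mitotic in red, with the mean of 2 libraries as a line. The S38A change runs against the WT change in both lower genes and in ENSMUSG00000005413.8, and for ENSMUSG00000026234.12 the S38A mitotic libraries, at 2307 and 2302 CPM, are the highest of all.

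The 30 genes were called on the difference of the changes, so the 2 changes and the 4 group levels that make it up are a description and no further support. Among the 20 lower genes, the median change was 0.65 in WT (0.18 to 1.41) and -0.82 in S38A (-1.93 to 0.07, all log2), and the median difference was -1.37 (-2.92 to -0.96). Among the 10 higher genes, the median change was -0.70 in WT (-1.68 to -0.30) and 0.24 in S38A (-0.32 to 1.71), and the median difference was 0.96 (0.66 to 2.00). In all 30 genes the 4 library-against-library changes of S38A did not overlap those of WT, a pattern found in 22.8% of the genes tested.

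The genes were then sorted by which of the 2 changes itself passed the threshold. The WT change was called in 1231 genes (18.4%) and the S38A change in 1246 (18.6%, edgeR). Both were called with opposite signs in 11 genes, and the difference was called in all 11, of which 10 were lower and 1 higher in S38A. In these 10 the WT change was 0.42 to 1.41 and the S38A change -1.51 to -0.44. Only the S38A change was called in 8 of the 30, of which 7 were lower genes with S38A changes of -1.93 to -0.87 against 0.18 to 1.17 in WT. The remaining gene of these 8 had a change of 1.71 in S38A and -0.30 in WT, the largest difference among the higher genes at 2.00. Only the WT change was called in 11 of the 30. Of these, 8 were higher genes, with WT changes of -1.68 to -0.45 and S38A changes of -0.32 to 0.35. The 3 lower ones had WT changes of 1.14 to 1.40 and S38A changes of -0.24 to 0.07.

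The change was called in WT alone in 576 genes, of which 11 (1.91%) had a called difference, and in S38A alone in 591 genes, of which 8 (1.35%) had one, beside 0.448% of all genes tested. An unadjusted p under 0.05 for the difference was found in 202 of these 576 and in 142 of these 591, beside 9.16% of all genes. The classes and the difference use the same libraries, so these shares are a description. Among the 644 genes called in both genotypes with the same sign, edgeR called a difference in 0, with 37 at an unadjusted p under 0.05, and DESeq2 called 4. Among the 4870 called in neither, edgeR called 0, with 221 at an unadjusted p under 0.05, and DESeq2 called 0. For the difference, DESeq2 gave an adjusted p to 811 genes alone and could call no others. The numbers of changes called are themselves uncertain. DESeq2 called 587 in WT and 542 in S38A, and the WT count was 647 without WT asynchronous replicate 2, 817 without WT mitotic replicate 1 and 702 without WT mitotic replicate 2. The S38A count was 702 without S38A asynchronous replicate 1, 714 without S38A mitotic replicate 1 and 817 without S38A mitotic replicate 2.

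The same 30 genes were set out by state, from the same 8 libraries as the changes above. In the 20 lower genes, S38A minus WT had a median of 0.22 in asynchronous cells, above 0 in 16, and of -1.18 in mitotic cells, below 0 in 19 (log2). Mitotic WT cells had the highest mean level of the 4 groups in 14 of the 20 and asynchronous S38A cells in the other 6. Mitotic S38A cells had the lowest level in 16 and asynchronous WT cells in the other 4. In the 10 higher genes, S38A minus WT had a median of -0.34 in asynchronous cells, below 0 in 7, and of 0.50 in mitotic cells, above 0 in 9. Mitotic WT cells were lowest in 7 of these and asynchronous S38A cells in 3.

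A difference between genotypes was called in 624 genes (9.32%) in asynchronous and in 885 (13.2%) in mitotic cells (edgeR). Over all 6692 genes, it was called in mitotic cells alone in 558 and in asynchronous cells alone in 297. In both states it was called with the same sign in 322 and with opposite signs in 5. The counts that follow are a description beside these. Of the 30 genes, 16 differed by this test in mitotic cells alone, 11 of them lower and 5 higher in the difference of changes. In asynchronous cells alone 6 did, 3 in each direction. The difference was called in both states with opposite signs in 5, 4 lower and 1 higher, and in both states with the same sign in 3, 2 lower and 1 higher. ENSMUSG00000031004.8 and ENSMUSG00000026234.12 belong to these 3. DESeq2 called 239 and 345 genotype differences in the 2 states. The asynchronous count was 327 without WT asynchronous replicate 2, 262 without S38A asynchronous replicate 1 and 406 without S38A asynchronous replicate 2. The mitotic count was 471 and 467 without WT mitotic replicate 1 or 2, and 443 and 550 without S38A mitotic replicate 1 or 2.

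**Figure D3:**
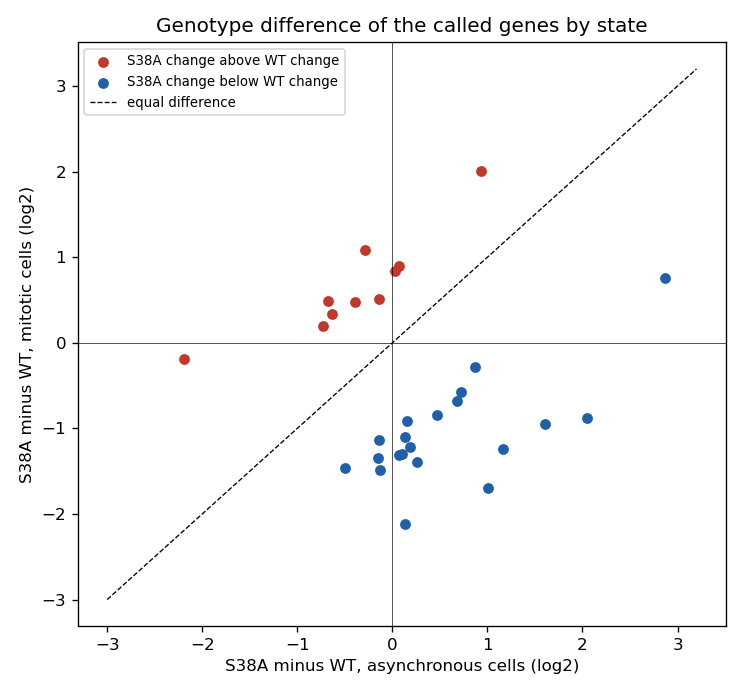
S38A minus WT (log2) in asynchronous cells (horizontal axis) and in mitotic cells (vertical axis) for the 30 called genes, with the line of equal difference dashed. The 20 lower genes (blue) lie under the line, 19 of them below 0 in mitosis, and the 10 higher genes (red) lie over it, 9 of them above 0 in mitosis.

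The S38D change is given beside the other 2. Its libraries entered the estimate of the spread and not the difference on which the genes were called, but a wide gap between the WT and S38A changes, for which the genes were chosen, leaves more room for another value to fall between them. Its position is therefore a description. Over all 6692 genes the S38D change lay between the other 2 in 35.0% and was nearer to the WT change in 52.8%. The S38D change was called in 1435 genes (21.4%, edgeR; 724 by DESeq2). In the 20 lower genes it had a median of -0.11 (-1.11 to 0.97, log2), lay between the WT and S38A changes in 19 and was nearer to the WT change in 8. It passed the threshold in 5 of the 20, as a fall in 4 and a rise in 1. In the 10 higher genes it had a median of -0.31 (-1.11 to 0.51), lay between the other changes in 9 and was nearer to WT in 8. It passed in 5 of the 10, always as a fall.

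The named genes show this range. ENSMUSG00000031004.8 had 1018 and 820 CPM in S38D asynchronous and 389 and 463 CPM in S38D mitotic libraries, a change of -1.11 ± 0.16 (adjusted p = 1.69e-07, edgeR), in the direction of S38A and opposite to WT. ENSMUSG00000026234.12 had 1578 and 1294 CPM against 809 and 866, a change of -0.78 ± 0.13 beside -0.75 in WT (adjusted p = 6.50e-06, edgeR). No S38D change was detectable for the other two. ENSMUSG00000031604.10 had 837 and 983 CPM against 839 and 898 (-0.066 ± 0.14, adjusted p = 0.786), and ENSMUSG00000005413.8 had 320 and 264 against 256 and 319 (-0.020 ± 0.17, adjusted p = 0.953, edgeR). The difference between the S38D change and either of the others was not tested.

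**Figure D4:**
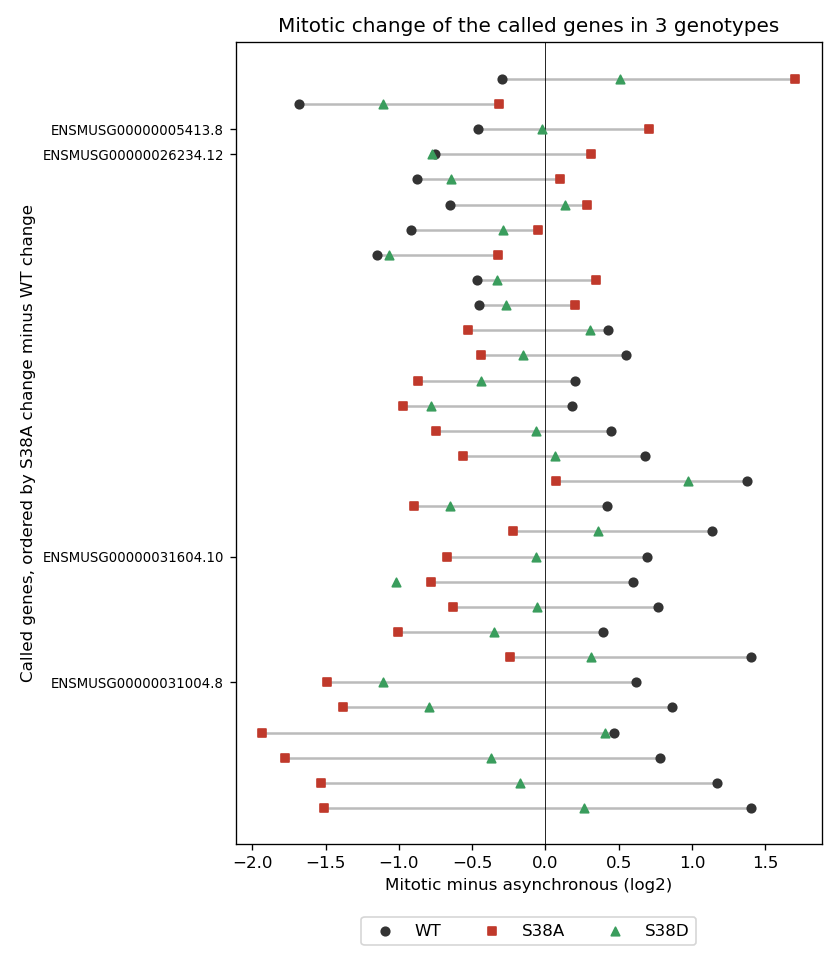
Log2 change from asynchronous to mitotic cells of the 30 called genes in WT (black circles), S38A (red squares) and S38D (green triangles), 1 row per gene, ordered by the S38A minus WT difference, with the 4 genes given by ID marked. The S38D change lies between the other 2 in 19 of the 20 lower and 9 of the 10 higher genes, which were chosen for a wide gap, and in 35.0% of all genes tested.

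How large a difference could be called depended on the number of footprints. The genes tested were divided into 4 classes of 1673 by mean CPM over the 8 libraries, a measure that also grows with the length of the coding sequence. The median standard error of the log2 difference was 0.74 in the class of fewest footprints (9.04 to 38.1 CPM), 0.52 and 0.39 in the next ones, and 0.27 in the class of most (145.5 CPM and above). Of the 30 genes, 24 lay in the last class, 9 higher and 15 lower. In the first class edgeR called 0 genes, with 89 at an unadjusted p under 0.05, and DESeq2 called 0. All 31 genes that DESeq2 called lay in the last class. It gave an adjusted p to 811 genes, and genes without one could not be called. The smallest called difference was 2.25 in size in the second class, 2.00 in the third and 0.66 in the fourth. The 5 lower genes with the largest differences, -2.92 to -2.25, were among those with few reads, 3 to 65 in a library, and had standard errors of 0.45 to 0.65 and adjusted p-values of 0.000767 to 0.0281 (edgeR).

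**Figure D5:**
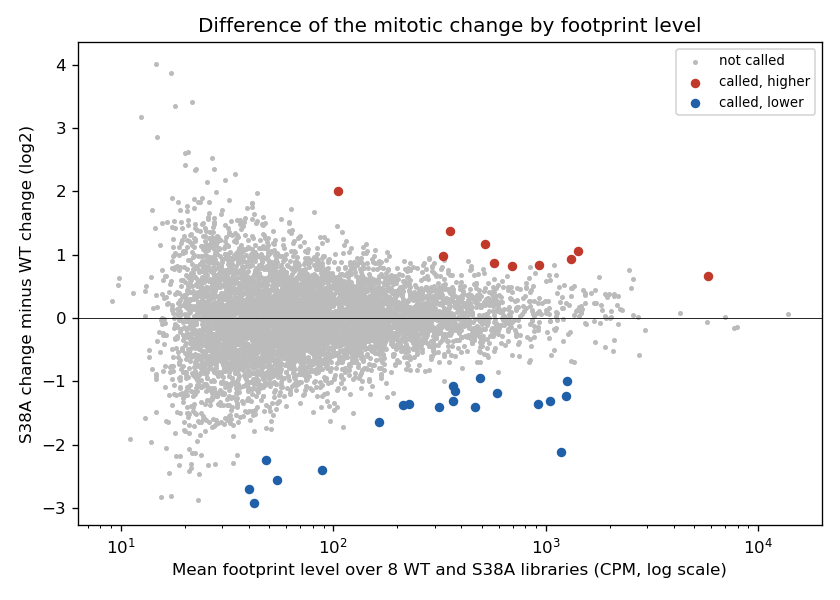
S38A change minus WT change (log2, vertical axis) against mean footprint level over the 8 libraries (CPM, log scale), 1 point per gene tested. Called genes (red, higher; blue, lower) lie mostly at high levels, 24 of 30 above 145.5 CPM, and the 5 with the largest negative differences are at lower ones.

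Cell cycle genes were described by lists for G1, S and G2/M phase, since the groups compared are defined by cell cycle state. The lists were derived here from ordered pairs of marker genes that the scran package gives by Ensembl ID for each phase. A gene was listed for a phase if it came first more often than second in the pairs of that phase. In the pairs of each other phase it had to come second more often. Of the 81 G1 genes tested, 1 was called, as lower (-1.24 ± 0.18, adjusted p = 7.11e-06, edgeR), and 8 (9.88%) had an unadjusted p under 0.05. Of the 74 S genes and the 67 G2/M genes, edgeR called 0, with 8 (10.8%) and 6 (8.96%) at an unadjusted p under 0.05. DESeq2 called 0 of either, but it gave an adjusted p to 811 genes alone and could call no others. How many list members were among the 811 was not counted. Over all genes tested, 9.16% had an unadjusted p under 0.05, and the unadjusted shares in the 3 lists lie near it. The share called was 0.448% of all genes, too low for lists of 81, 74 and 67 genes to show whether theirs differed. These shares describe the listed genes alone. ENSMUSG00000031004.8, with the smallest p of all genes tested, is in none of the lists. Whether called genes outside the lists act in the cell cycle was not determined, since the IDs could not be named. The median difference, 0.0029 over all genes, was 0.10 for S and -0.081 for G2/M, the latter turning to 0.051 without WT mitotic replicate 2. For G1 it was -0.10, turning to 0.039 without S38A asynchronous replicate 1 and to 0.034 without WT mitotic replicate 2. Over the 15 alternatives the count of called genes stayed at 1 for G1 and at 0 for S and G2/M.

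Within each genotype the G2/M genes had fewer footprints in mitotic cells, with a median change of -0.33 in WT and -0.36 in S38A. Their summed level was 12533 and 12280 CPM in WT asynchronous, 10135 and 10404 in WT mitotic, 15915 and 15621 in S38A asynchronous, and 12172 and 12572 in S38A mitotic libraries. In either state the sum is higher in S38A than in WT libraries, without overlap. The S genes showed the same order, lower in mitosis and higher in S38A, at 14124 and 14818, 12479 and 13348, 17827 and 17116, and 15347 and 15552 CPM in the same order. The G1 sum did not follow this order, at 13218 and 12735, 14260 and 14661, 14582 and 13978, and 14044 and 13674 CPM, so that it was higher in mitotic than in asynchronous WT libraries, while the 2 states overlapped in S38A. The part of these cell cycle levels in the 30 calls was not tested.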

How the data were processed

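For each library the authors deposited raw counts of reads on coding sequences, as whole numbers. The submitters' processing notes name Bowtie2 2.3.2, DESeq2 1.18.1, HTSeq 0.9.1, STAR 2.5.3a and bcl2fastq 2.16.0.10, with the build mm10. Parameters, strand use and handling of duplicate reads are not given in the sources used here; overlapping genes and near-identical copies are uncertain. Fragments of 27 to 30 nt were cloned, per the labels' protocols. Summary rows were left out of library sizes; ambiguous reads were 0.524 to 0.673% of unique alignments.

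The test was the quasi-likelihood F test of edgeR 4.0.16 under R 4.3.3, after TMM scaling and filterByExpr at a minimum count of 10. All 12 libraries entered 1 model of 6 groups, so that groups of 2 share an estimate of the spread (common biological coefficient of variation 0.0868). Calls are Benjamini-Hochberg adjusted p under 0.05 over all 6692 genes, and standard errors are the log2 difference over the square root of F. CPM are the tested genes' counts scaled to a total of 1e6 per library after TMM scaling; library-against-library changes use log2 CPM with a prior count of 2. The 2 genes of smallest adjusted p in each direction are given by ID; they were chosen after their values were seen, all lie among the 15 highest or lowest differences that the naming rule takes, and the other called genes are summarised because their IDs could not be named. The symbol lists prepared for pathways and cell types could not be applied for the same reason. Phase lists were derived from the marker gene pairs of scran 1.30.0. Members and lists were chosen with earlier results of these data known. Alternatives were the scaling, the filter, DESeq2 1.42.0, the 8 libraries alone, a replicate block, and leaving out each library.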

Additional observations from a re-analysis of the deposited data

Results flagged for a closer look

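Of the 30 called genes, the 4 given by ID are listed again here. In each, the change of 1 genotype differed from that of the other by the test of the difference itself (edgeR, adjusted over all genes tested). The S38A change minus the WT change was -2.11 (log2) for ENSMUSG00000031004.8 and -1.36 for ENSMUSG00000031604.10. It was 1.06 for ENSMUSG00000026234.12 and 1.16 for ENSMUSG00000005413.8. Each kept its direction and its call in all 15 alternatives. The 4 were picked for their smallest adjusted p and the alternatives refit the same libraries, so this is a description and no further support. Groups of 2 libraries are too small to look for a library that stands apart.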

How the results depend on the processing

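Of the 15 alternatives, all kept the direction of the 30 genes, and 12 genes (3 higher, 9 lower) were called in every one. The total of 30 was 33 with DESeq2 size factors, 36 with library totals, 31 with DESeq2, 41 with no filter, 32 with a mean CPM of at least 10, 44 with the 8 libraries alone, and 20 to 42 with 1 library left out. DESeq2 adjusted over 811 genes in place of 6692, kept 21 of the 30 and gave no adjusted p for the other 9. The 20 lower genes became 25 with no filter and 28 with the 8 libraries alone. The 10 higher genes became 16 with library totals, 16 with no filter and 16 with the 8 libraries alone, and 5 to 20 with 1 library left out; the 20 lower genes ranged from 14 to 22 with 1 left out. Higher genes were 33.3% of calls, 44.4% with library totals, and 23.8% (without S38A mitotic replicate 1) to 48.4% (DESeq2) over all alternatives. DESeq2 called fewer single changes and genotype differences than edgeR, and how many genes both called was not counted. For the changes it called 587 against 1231 in WT, 542 against 1246 in S38A and 724 against 1435 in S38D. For genotype differences it called 239 against 624 in asynchronous and 345 against 885 in mitotic cells. With 1 library left out these counts ranged from 647 to 1212, 702 to 1279, 1381 to 1465, 262 to 598 and 443 to 917; leaving out 1 leaves a group with 1 sample, which is assumed to vary like the others. The cause was not tested. The differences of the 4 named genes ranged from -2.39 to -1.73, -1.53 to -1.20, 0.87 to 1.25 and 1.11 to 1.25, with adjusted p up to 0.0150. Whether replicate numbers pair the libraries was not tested. Deviations of same-numbered libraries correlated at -0.10 to 0.13 over 2478 genes. With the replicate block 28 genes were called, all among the 30, 8 higher and 20 lower. Lists chosen by symbol were not run.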
